A study of Mus musculus with 24 samples.

Results

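The 6 chemokine receptor genes Ccr1, Ccr2, Ccr7, Ccr9, Cxcr4 and Cx3cr1 were followed through 4 blood progenitor populations of mice with and without Ikaros. The members were all probe sets that the array annotation gives to 1 of these symbols alone, 15 of the 45037 probe sets tested. Ccr9 had 5 probe sets, Ccr2 had 4, Ccr1 and Cx3cr1 had 2 each, and Ccr7 and Cxcr4 had 1 each. All 15 were kept, with no filter on low values.

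Chemokine receptors are G protein-coupled receptors that steer cells along gradients of small secreted proteins, the chemokines. In the bone marrow Cxcr4 holds stem and progenitor cells near its ligand Cxcl12, while Ccr9, the receptor of Ccl25, and Ccr7, the receptor of Ccl19 and Ccl21, guide lymphoid progenitors to the thymus. Ccr2 lets monocytes leave the marrow along Ccl2, Cx3cr1 binds Cx3cl1 (fractalkine) and marks monocytes, macrophages and dendritic cell precursors, and Ccr1 binds Ccl3 and related chemokines on myeloid cells.

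RNA was measured on 24 Affymetrix arrays, 3 for each of 8 groups, and the values are log2 signal. Ikaros, the product of Ikzf1, is a DNA-binding regulator of lymphoid development, and the study compared its null mutant (KO) with wild type (WT). WT cells came from B-p-GFP-C mice (C57BL/6 x C3H), which carry a transgenic GFP reporter built on Ikaros regulatory sequence, and KO cells from mice that joined this reporter to the Ikaros null I74 line (C57BL/6 x 129SV). All 8 groups therefore carried the reporter, and the strain background of the null line cannot be told apart from the genotype. Age and sex are not given in the sources used here.

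Cells were sorted as LSK or LK, in the field's usage lineage-negative Kit-positive cells with or without Sca-1, and by the GFP level. The labels name LSK GFPneg-lo as stem cells (HSC), LSK GFPhi as lymphoid-primed multipotent progenitors (LMPP), LK GFPneg as megakaryocyte and erythroid progenitors (MEP) and LK GFPhi as granulocyte and monocyte progenitors (GMP). The titles number the 3 arrays of a group as biological replicates without saying if an array stands for 1 animal or for a pool, so p-values measure the spread between these arrays. Ikzf1 signal ran from 11.0 to 12.0 on the 12 WT arrays and from 6.51 to 8.88 on the 12 KO arrays, as labelled. In WT cells the mean of 8 stem cell markers was highest in LSK GFPneg-lo (10.2 to 10.5), that of 7 megakaryocyte and erythroid markers in LK GFPneg (11.7 to 11.8), and that of 8 granulocyte and monocyte progenitor markers in LK GFPhi (11.2 to 12.0). The mean of 7 early lymphoid markers was above 10 on every WT array of both GFPhi populations and below 9 on the other WT arrays. With bulk RNA, fewer cells of a type and less RNA per cell cannot be told apart.

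A difference below is the log2 difference of 2 group means with its standard error from limma, fitted on all 24 arrays, and a probe set was called at an adjusted p under 0.05 (Benjamini and Hochberg over all 45037 probe sets). A mean is followed by the SD over 3 arrays. Values of different probe sets are not on a common scale, so a level is compared only within a probe set. The plot of receptor signal shows 1 probe set per gene, the one with the highest mean.

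**Figure D1:**
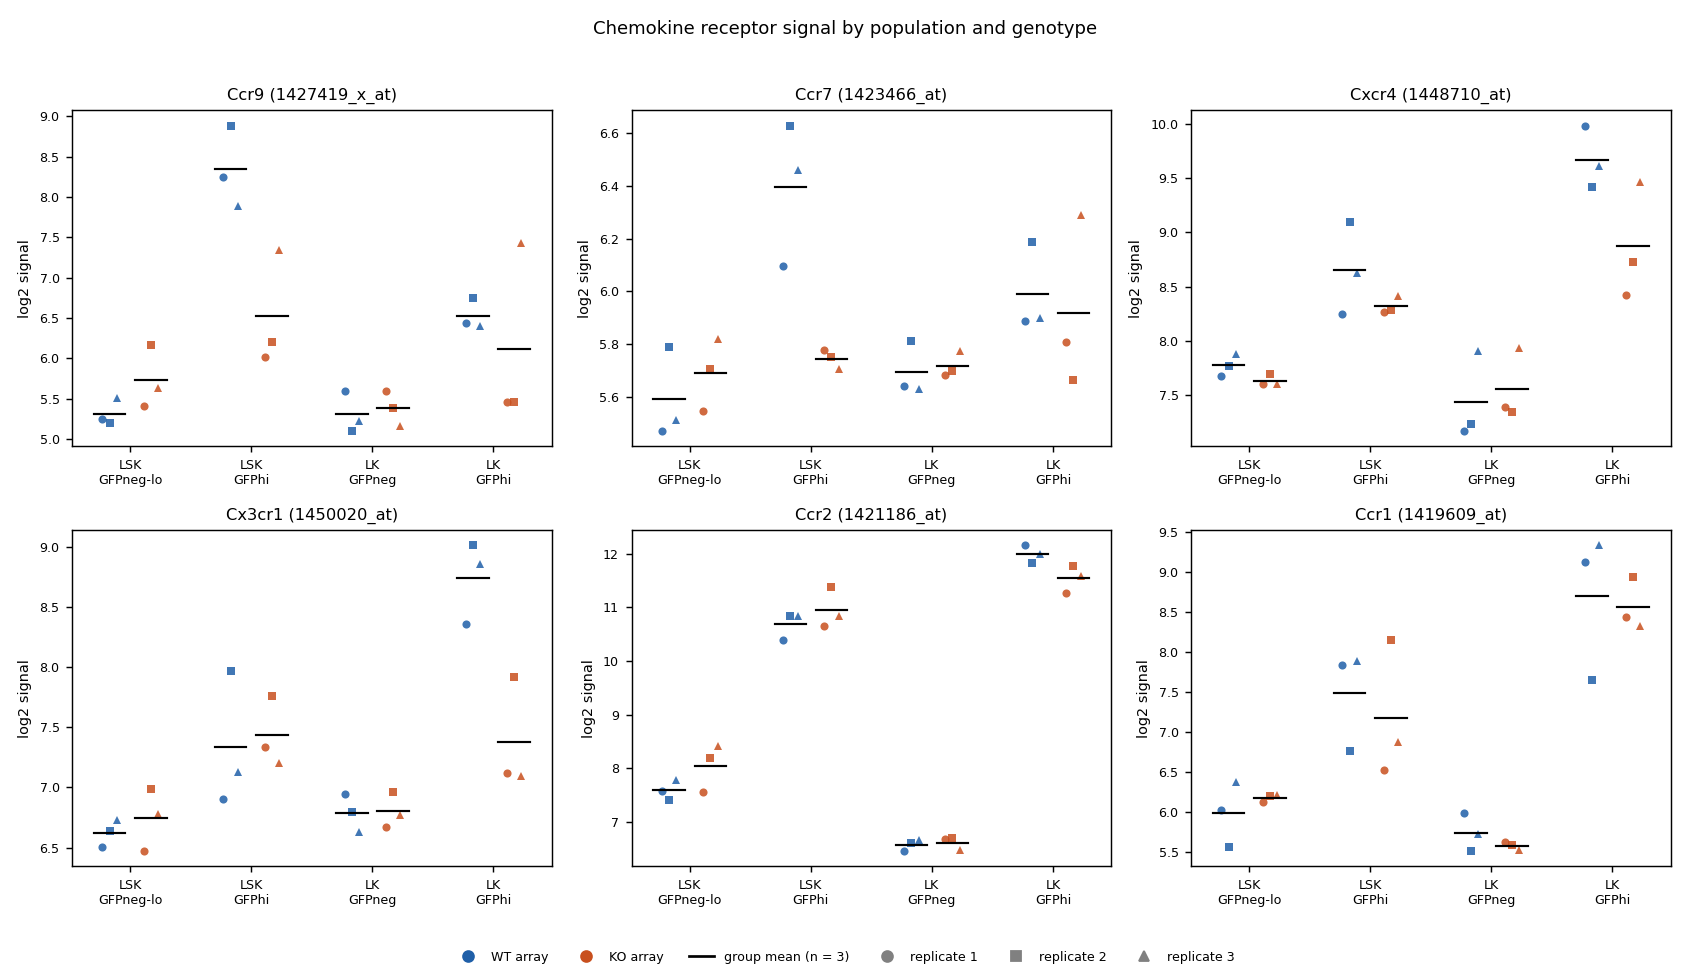
Log2 signal of the probe set with the highest mean for each of the 6 receptor genes (vertical axis) in the 4 sorted populations (horizontal axis), each point 1 array, blue for WT and orange for KO, with marker shape for the replicate number and a bar for the mean of 3 arrays. Ccr2 ran from a mean of 6.58 in WT LK GFPneg to 11.98 in WT LK GFPhi, Ccr9 peaked in WT LSK GFPhi at 8.34, and Cx3cr1 reached 8.74 in WT LK GFPhi and 7.38 in KO LK GFPhi.

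In the GFPhi progenitors 3 of the 6 receptors had a probe set that was lower in KO than in WT cells. Ccr9 (2 of 5 probe sets) and Ccr7 fell in LSK GFPhi, where 3.05% of all probe sets were called, and Cx3cr1 (1 of 2) fell in LK GFPhi, where 8.79% were called and the members' share of 1 in 15 was near that background, while Ccr2 and Ccr1 had no called difference between genotypes in any population. Cxcr4 was lower in KO LK GFPhi by a margin just outside the threshold. Both genes with the larger falls lie on chromosome 9, Ccr9 at 123767211 to 123783457 and Cx3cr1 at 120048683 to 120068296 (GRCm38.p6), as do Ccr1 at 123962126 to 123968692 and Ccr2 at 124101918 to 124109140. Ccr7 lies on chromosome 11 at 99144199 to 99155077 and Cxcr4 on chromosome 1 at 128588199 to 128592299.

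The 250 bases before the annotated start of Ccr9 and Cx3cr1 are shown because these are the 2 receptors with the largest called KO differences, and Ikaros is known to bind DNA at sites with a GGGAA core. RefSeq promoters of build GRCm38.p6 were found for 5 of the 6 members, Ccr7 not among them. Both strands were searched for GGGAA, which reads TTCCC on the opposite strand. The longer motif TGGGAA, which contains the first and reads TTCCCA on the opposite strand, was searched in the same way. Sequences are written 5′ to 3′ along the gene's own strand, with a match of GGGAA or TTCCC in capitals. The Ccr9 stretch is chr9:123766961-123767210 on the plus strand and the Cx3cr1 stretch is chr9:120068297-120068546 on the minus strand.
Ccr9: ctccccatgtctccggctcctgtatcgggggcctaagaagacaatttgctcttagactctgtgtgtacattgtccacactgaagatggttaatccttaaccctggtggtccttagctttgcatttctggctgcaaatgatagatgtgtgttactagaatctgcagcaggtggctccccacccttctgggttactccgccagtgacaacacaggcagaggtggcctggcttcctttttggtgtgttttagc
Cx3cr1: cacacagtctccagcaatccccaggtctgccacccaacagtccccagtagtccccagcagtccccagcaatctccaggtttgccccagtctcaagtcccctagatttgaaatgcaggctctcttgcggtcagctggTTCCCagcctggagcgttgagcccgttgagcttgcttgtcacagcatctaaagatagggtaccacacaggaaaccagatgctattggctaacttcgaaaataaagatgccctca
The Ccr9 stretch had 0 matches. The Cx3cr1 stretch had 1 match of TTCCC, 114 bases before the start, which is also a match of TTCCCA. Cxcr4 had 1 match of TTCCC, 198 bases before its start, and Ccr1 and Ccr2 had 0. The Ccr2 stretch (chr9:124101933-124102182, plus strand) lies within the gene coordinates given above, so it does not describe the bases before that start. Such letters are common, since 56.2% of 32851 mouse promoters of this length hold GGGAA and 21.6% hold TGGGAA on either strand. A match is a description of the sequence and not a measured binding site.

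Ccr9, the receptor through which progenitors respond to thymic Ccl25, had its highest signal in LSK GFPhi cells in WT mice. Probe set 1427419_x_at read 8.25, 8.89 and 7.89 in WT LSK GFPhi (8.34 ± 0.50, SD, n = 3). It read 5.25, 5.19 and 5.50 in WT LSK GFPneg-lo, 5.59, 5.10 and 5.23 in WT LK GFPneg, and 6.44, 6.75 and 6.40 in WT LK GFPhi. WT LSK GFPhi thus stood above all other WT arrays, WT LK GFPhi came next, and the arrays of both GFP-low populations overlapped.

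The rise from WT LSK GFPneg-lo to WT LSK GFPhi was 3.03 ± 0.41 (SE, adjusted p = 0.000114), which is 8.16-fold. From WT LSK GFPhi to WT LK GFPhi the signal fell by 1.81 (adjusted p = 0.0213), a call lost without replicate 1 or 2 of WT LSK GFPhi or replicate 1 or 3 of WT LK GFPhi (adjusted p = 0.0664, 0.124, 0.104 and 0.106). WT LK GFPhi was 1.22 above WT LK GFPneg, which did not pass (adjusted p = 0.0586, and 0.0416 with the replicate number as a block). WT LK GFPneg and WT LSK GFPneg-lo, the lowest neighbours in this order, did not differ beyond their spread (-0.01, adjusted p = 0.994).

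Without Ikaros, the same probe set read 6.01, 6.20 and 7.35 in LSK GFPhi (6.52 ± 0.72, SD, n = 3). All 3 KO arrays lay below all 3 WT arrays, and the highest of them was replicate 3. In its group that array was highest for mature T and NK cell (7.63, against 7.12 and 7.22) and megakaryocyte and erythroid markers (8.79, against 8.44 and 8.76). It was lowest for granulocyte and monocyte progenitor (11.32, against 11.41 and 11.42) and mature monocyte and macrophage markers (7.27, against 7.39 and 7.36). For early lymphoid markers it lay between the others (9.31, against 9.49 and 9.05), as for the remaining lists. The part of these lists in the Ccr9 value was not tested. The KO minus WT difference was -1.82 ± 0.41 (SE, adjusted p = 0.0157), a 3.54-fold fall with a 95% confidence interval of -2.69 to -0.96. The call was lost, with the direction kept, without WT replicate 2 (-1.55, adjusted p = 0.0937), KO replicate 1 (-1.57, 0.0942) or KO replicate 2 (-1.66, 0.0861). It was also lost when only these 6 arrays were fitted (adjusted p = 0.0728).

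In KO LK GFPhi the arrays of 1427419_x_at split, with 5.46, 5.46 and 7.44 for replicates 1 to 3. Replicate 3 lay above all 3 WT LK GFPhi arrays and the other 2 lay below them. The mean difference of -0.41 was not called (adjusted p = 0.602, confidence interval -1.28 to 0.46). Without KO replicate 3 it was -1.07 and also not called (adjusted p = 0.0733). That array also had the highest mean of 7 early lymphoid markers in its group (9.11, against 8.43 and 8.23). The same held for 7 megakaryocyte and erythroid (9.79, against 8.88 and 8.96) and 7 mature T and NK cell markers (7.82, against 7.39 and 7.45). It was highest too for stem cell (8.86, against 8.64 and 8.62) and mature monocyte and macrophage markers (7.79, against 7.47 and 7.42). Dendritic cell (7.93, against 7.79 and 7.72) and mature B and plasma cell markers were also highest on it. Only granulocyte and monocyte progenitor markers were lowest on it (11.95, against 12.21 and 12.16). The part of these lists in the Ccr9 value was not tested.

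In the GFP-low populations Ccr9 read 5.41, 6.16 and 5.63 in KO LSK GFPneg-lo and 5.60, 5.38 and 5.16 in KO LK GFPneg. These arrays overlapped with their WT counterparts, and the differences of 0.42 (adjusted p = 0.93) and 0.07 (adjusted p = 0.993) were not called. The KO rise from LSK GFPneg-lo to LSK GFPhi was 0.79 and not called (adjusted p = 0.647). The test of whether the KO difference itself was larger in LSK GFPhi than in LSK GFPneg-lo gave -2.24 ± 0.59 (SE), which did not pass after adjustment (adjusted p = 0.28).

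**Figure D2:**
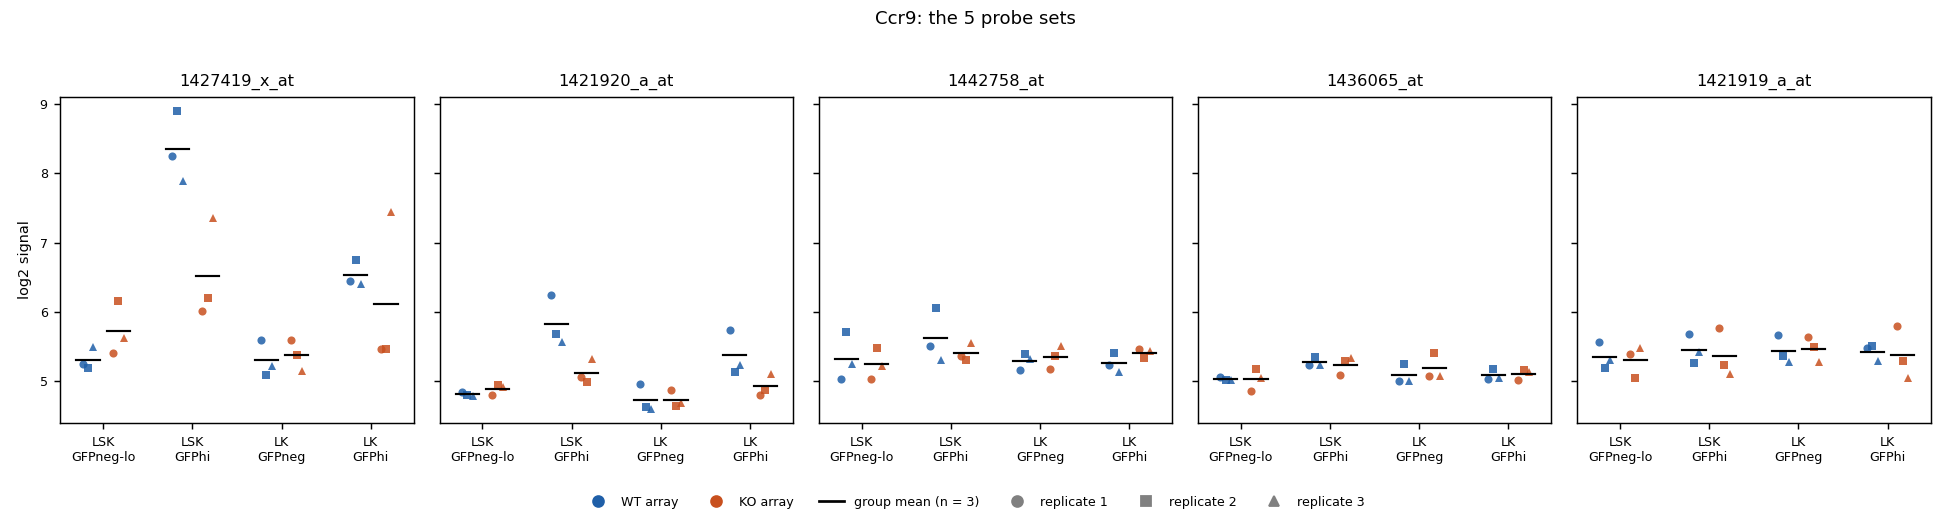
Log2 signal of the 5 Ccr9 probe sets (1 panel each, in order of the span of their group means, with a common vertical axis) in the 4 sorted populations (horizontal axis), each point 1 array, blue for WT and orange for KO, with marker shape for the replicate number and a bar for the mean of 3 arrays. The first 2 probe sets peak in WT LSK GFPhi and are lower in KO LSK GFPhi, while the group means of the other 3 span 0.16 to 0.38.

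The 5 Ccr9 probe sets disagreed. Probe set 1421920_a_at followed 1427419_x_at (Pearson r = 0.863 over 24 arrays) at a lower signal. It read 6.25, 5.68 and 5.57 in WT LSK GFPhi and 5.06, 4.99 and 5.32 in KO LSK GFPhi, again with no overlap. The fall was -0.71 ± 0.17 (SE, adjusted p = 0.0195), 1.63-fold. It was not called without WT replicate 1 (-0.50, adjusted p = 0.142), KO replicate 1 (-0.68, 0.078) or KO replicate 2 (-0.64, 0.105), or when only these 6 arrays were fitted (adjusted p = 0.162).

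In LK GFPhi this second probe set separated the genotypes where the first did not. It read 5.74, 5.14 and 5.24 in WT and 4.80, 4.88 and 5.11 in KO, so that no KO array reached a WT array. The difference of -0.44 was not called (adjusted p = 0.106), and passed with the replicate number as a block (adjusted p = 0.0456). In the GFP-low groups its means lay between 4.74 and 4.89, whatever the genotype.

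The other 3 Ccr9 probe sets, 1421919_a_at, 1436065_at and 1442758_at, showed little variation among groups. The span of their 8 group means was 0.16, 0.25 and 0.38, against pooled SDs between arrays of 0.25, 0.12 and 0.22. Their KO differences in LSK GFPhi were -0.09, -0.04 and -0.22, none of them called (adjusted p = 1, 1 and 0.88). Probe set 1442758_at read 5.51, 6.06 and 5.31 in WT LSK GFPhi and 5.37, 5.30 and 5.55 in KO LSK GFPhi, and these arrays overlapped. The correlation of 1421919_a_at with the other 4 was -0.31 to 0.11, and the remaining pairs had r of 0.29 to 0.52. All 5 are dim, with means at the 18.4 to 39.8 percentile of all probe sets. By the maker's naming, the suffix _x_at marks a probe set with probes that may also match other transcripts, and _a_at marks one that may detect several transcripts of a gene.

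Ccr7, the receptor for Ccl19 and Ccl21, had a narrower range on its 1 probe set, 1423466_at. This probe set is dim too, with a mean at the 33.8 percentile of all probe sets and a highest value of 6.63 on any array. It read 6.10, 6.63 and 6.46 in WT LSK GFPhi (6.39 ± 0.27, SD, n = 3). In the other WT groups it read 5.47, 5.79 and 5.51 (LSK GFPneg-lo), 5.64, 5.81 and 5.63 (LK GFPneg), and 5.89, 6.19 and 5.90 (LK GFPhi). LSK GFPhi was the highest WT population, with 1 array of WT LK GFPhi above its lowest array.

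The Ccr7 rise from WT LSK GFPneg-lo to WT LSK GFPhi was 0.80 ± 0.15 (SE, adjusted p = 0.00246), and the difference from WT LK GFPneg was 0.70 (adjusted p = 0.00142). The rise was not called when only the compared groups were fitted (adjusted p = 0.069). WT LK GFPhi was below WT LSK GFPhi by a margin that was not called (-0.40, adjusted p = 0.188). In KO cells no such order was seen, since LSK GFPhi read 5.78, 5.75 and 5.71 and was 0.05 above KO LSK GFPneg-lo (adjusted p = 0.95).

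The genotypes did not overlap for Ccr7 in LSK GFPhi, where every KO array lay below every WT array. The fall was -0.65 ± 0.15 (SE, adjusted p = 0.0155), 1.57-fold, with a 95% confidence interval of -0.96 to -0.34. It was not called without WT replicate 2 (-0.53, adjusted p = 0.0985), WT replicate 3 (-0.62, 0.071), KO replicate 2 (-0.65, 0.0525) or KO replicate 3 (-0.63, 0.0713), or when only these 6 arrays were fitted (0.0882). In the other populations Ccr7 differed by 0.10, 0.02 and -0.07, with overlapping arrays. KO LK GFPhi read 5.81, 5.66 and 6.29. The difference between the KO effects of LSK GFPhi and LSK GFPneg-lo was -0.75 ± 0.21 (SE) and did not pass (adjusted p = 0.371).

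Over all members, 3 of 15 probe sets fell and 0 rose in KO LSK GFPhi, namely Ccr7 and both responding probe sets of Ccr9. Of all 45037 probe sets 3.05% were called in this comparison, and 1.3% were called lower. The median member difference was -0.06, against -0.01 over all probe sets. Arrays of the genotypes were apart for 3 members that were lower and 2 that were higher, both of Ccr2, where 7.38% and 7.41% of all probe sets were apart in those directions. In the same arrays 7 of 7 measured early lymphoid markers fell, from list means of 10.7 to 10.9 on WT arrays to 9.05 to 9.49 on KO arrays. Of the stem cell markers 4 of 8 rose and 0 were called lower (8.10 to 8.44 on WT and 9.51 to 9.78 on KO arrays). The group means of Hlf (10.49 in WT, 9.79 in KO), Mecom (9.67, 9.38) and Meis1 (11.41, 11.05) were nonetheless lower in KO. Of the granulocyte and monocyte progenitor markers 2 of 8 rose (10.5 to 10.7 on WT and 11.3 to 11.4 on KO arrays), and of the mature monocyte and macrophage markers 2 of 6 rose (6.62 to 6.75 and 7.27 to 7.39). Of the mature B and plasma cell markers 2 of 7 fell (8.27 to 8.39 and 7.28 to 7.53), and of the dendritic cell markers 2 of 8 fell (8.16 to 8.43 and 7.87 to 8.05). Among the latter was Flt3, which is also on the early lymphoid list. Of the megakaryocyte and erythroid markers 1 of 7 rose (8.07 to 8.45 and 8.44 to 8.79), and of the mature T and NK cell markers 0 of 7 were called (7.14 to 7.27 and 7.12 to 7.63). Log2 signals have no true 0, so none of these markers is at 0, and their part in the Ccr9 and Ccr7 values was not tested.

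**Figure D3:**
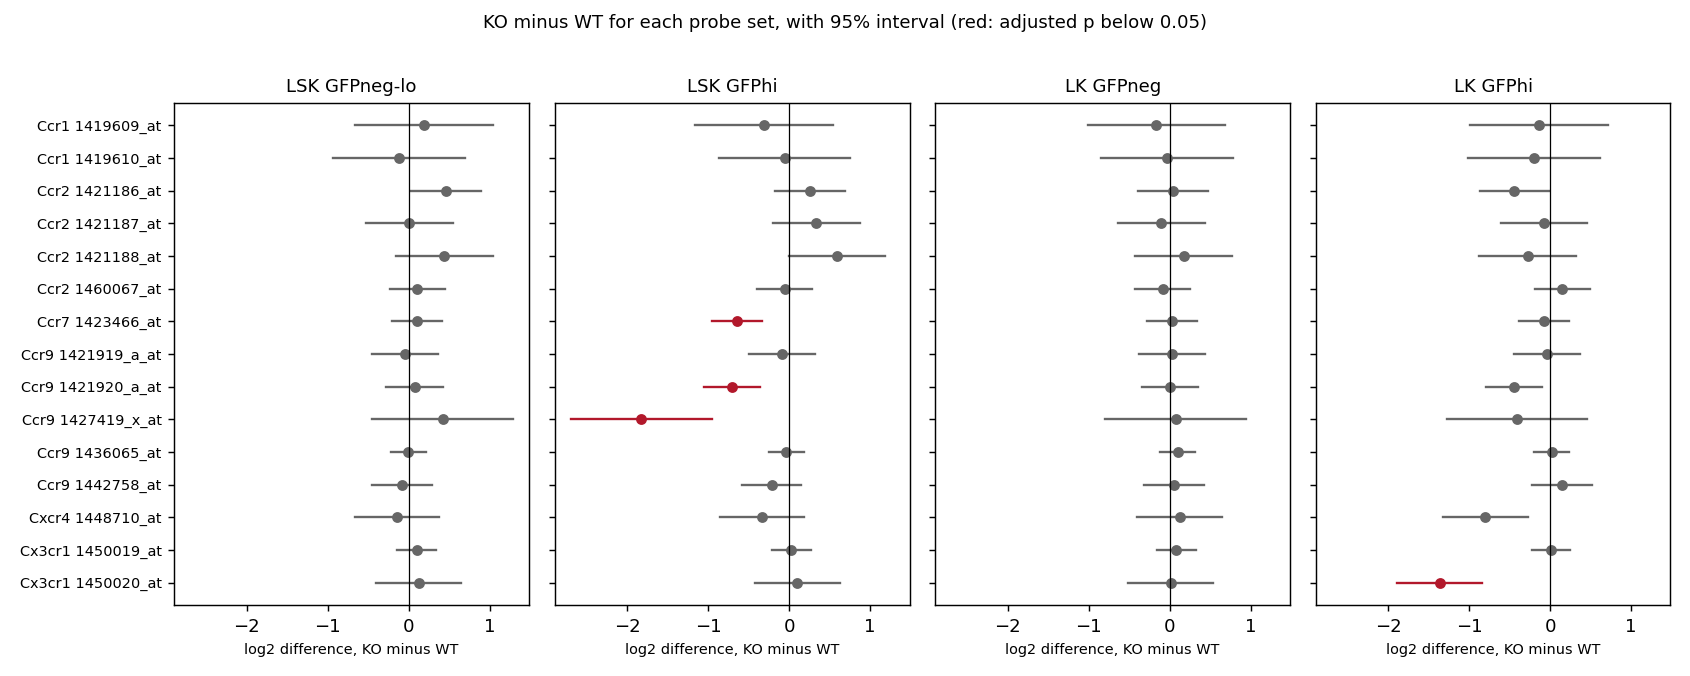
KO minus WT log2 difference of each of the 15 member probe sets (rows) in the 4 sorted populations (panels), with points for the estimate and lines for the 95% confidence interval from limma; red marks those called at an adjusted p under 0.05. The called falls are 2 Ccr9 probe sets and Ccr7 in LSK GFPhi, and 1 Cx3cr1 probe set in LK GFPhi.

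Cx3cr1, the fractalkine receptor, had the one called KO difference among the receptors in LK GFPhi. Probe set 1450020_at read 8.36, 9.01 and 8.86 in WT LK GFPhi (8.74 ± 0.34, SD, n = 3) and 7.12, 7.92 and 7.10 in KO LK GFPhi (7.38 ± 0.47, SD, n = 3). The highest KO array lay below the lowest WT array. The fall was -1.36 ± 0.25 (SE, adjusted p = 0.00182), 2.57-fold, with a 95% confidence interval of -1.89 to -0.84.

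No single array decided the Cx3cr1 call, which held with each of the 6 arrays left out (-1.63 to -1.22, adjusted p = 0.000539 to 0.0149). It was lost when only these 6 arrays were fitted (adjusted p = 0.0742). In the other populations the genotypes overlapped. Cx3cr1 read 6.90, 7.97 and 7.13 in WT LSK GFPhi and 7.33, 7.76 and 7.20 in KO LSK GFPhi, a difference of 0.10 (adjusted p = 1). In LSK GFPneg-lo the group means were 6.62 and 6.75, and in LK GFPneg they were 6.79 and 6.80, for WT and KO.

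In WT mice Cx3cr1 was highest in LK GFPhi, 1.41 ± 0.25 (SE) above LSK GFPhi (adjusted p = 0.00361) and 1.96 above LK GFPneg (adjusted p = 9.69e-06). The call against LSK GFPhi was lost when only the compared groups were fitted (adjusted p = 0.15). The other 3 WT populations did not differ from one another beyond their spread in this fit (adjusted p = 0.141 to 0.76), although with the replicate number as a block LSK GFPhi was called above LSK GFPneg-lo (0.0236) and above LK GFPneg (0.025). In KO mice the step from LSK GFPhi to LK GFPhi was -0.05 (adjusted p = 0.979). The step from KO LK GFPneg to KO LK GFPhi was 0.58 (adjusted p = 0.128, and 0.0199 with the block).

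The test of the difference between KO effects in LK GFPhi and LK GFPneg gave -1.38 ± 0.36 (SE) for Cx3cr1. It missed the threshold (adjusted p = 0.0621) and passed with the replicate number as a block (0.00368), with median centring (0.0389), with 1 probe set per gene (0.0426), with the dimmest 40% left out (0.0497), without WT LK GFPhi replicate 1 (-1.57, 0.039) and without KO LK GFPhi replicate 2 (-1.65, 0.0153). Between LK GFPhi and LSK GFPhi the KO effects differed by -1.47 ± 0.36 (SE), which did not pass either (adjusted p = 0.228). It passed without WT LSK GFPhi replicate 2 (-1.78, 0.0272) and with the replicate number as a block (0.0149), although the numbers did not pair the arrays of this comparison.

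The other Cx3cr1 probe set, 1450019_at, did not show this pattern. It read 5.68, 5.47 and 5.47 in WT LK GFPhi and 5.64, 5.33 and 5.68 in KO LK GFPhi, so that the arrays overlapped (0.01, adjusted p = 0.969). Its 8 group means spanned 0.28, and it correlated with 1450020_at at r = 0.282 over 24 arrays. The fall of Cx3cr1 in KO LK GFPhi therefore rests on 1 of its 2 probe sets.

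Cxcr4, the Cxcl12 receptor that keeps progenitors in the marrow, had its highest group mean in LK GFPhi in both genotypes. In KO cells LK GFPhi (8.87) was not called above LSK GFPhi (8.32). Probe set 1448710_at read 9.99, 9.42 and 9.61 in WT LK GFPhi, 8.25, 9.09 and 8.62 in WT LSK GFPhi, 7.68, 7.77 and 7.88 in WT LSK GFPneg-lo, and 7.17, 7.23 and 7.91 in WT LK GFPneg. The 3 WT LK GFPhi arrays lay above all other WT arrays, and those of WT LK GFPneg and WT LSK GFPneg-lo overlapped. WT LK GFPhi was 2.24 ± 0.25 (SE) above WT LK GFPneg (adjusted p = 1.49e-06).

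Down the WT order, LK GFPhi was 1.02 above LSK GFPhi (adjusted p = 0.0326). That call was lost without replicate 1 or 3 of WT LSK GFPhi (adjusted p = 0.176 and 0.076) or replicate 1 or 3 of WT LK GFPhi (0.21 and 0.11). LSK GFPhi was 0.88 above LSK GFPneg-lo, which was not called (adjusted p = 0.0684), but passed with the replicate number as a block (0.0223), with 1 probe set per gene (0.0481), with a further quantile normalization (0.98, 0.0261) and without WT LSK GFPhi replicate 1 (1.08, 0.0359). The lowest neighbours, LSK GFPneg-lo and LK GFPneg, did not differ beyond their spread (-0.34, adjusted p = 0.419).

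Cxcr4 read 8.42, 8.73 and 9.47 in KO LK GFPhi (8.87 ± 0.54, SD, n = 3), where replicate 3 reached into the WT range. The KO difference of -0.80 ± 0.25 (SE) lay just outside the threshold (adjusted p = 0.052, 95% confidence interval -1.32 to -0.28). It passed with the replicate number as a block (0.0163), with array weights (-0.95, 0.00929), with 1 probe set per gene (0.0479), with the dimmest 40% left out (0.0393), without KO replicate 3 (-1.10, 0.0107) and without WT replicate 2 (-0.93, 0.0467). Without KO replicate 1 it was -0.57 (adjusted p = 0.176). In the other populations the difference was -0.33 (LSK GFPhi), -0.14 (LSK GFPneg-lo) and 0.12 (LK GFPneg), with arrays that overlapped. In LSK GFPhi the KO arrays read 8.27, 8.28 and 8.41.

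Ccr2, the receptor that monocytes use to leave the marrow, had the widest range of the 15 probe sets, and its order of populations was present in both genotypes. Probe set 1421186_at read 12.15, 11.82 and 11.98 in WT LK GFPhi, 10.40, 10.83 and 10.84 in WT LSK GFPhi, 7.57, 7.41 and 7.79 in WT LSK GFPneg-lo, and 6.47, 6.60 and 6.66 in WT LK GFPneg. No array of one WT population overlapped with another. All neighbours in this order were called, with steps of 1.29 ± 0.21 (adjusted p = 0.00146), 3.10 ± 0.21 (3.88e-08) and 1.01 ± 0.21 (0.00115), and the whole range from LK GFPneg to LK GFPhi was 42.4-fold.

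KO arrays read 11.27, 11.77 and 11.58 in LK GFPhi, 10.64, 11.37 and 10.83 in LSK GFPhi, 7.55, 8.19 and 8.42 in LSK GFPneg-lo, and 6.68, 6.71 and 6.47 in LK GFPneg. The order of means was that of WT, and the arrays of the GFPhi populations overlapped. The KO step from LSK GFPhi to LK GFPhi was 0.59 and not called (adjusted p = 0.245), while the step from LSK GFPneg-lo to LSK GFPhi was 2.89 (adjusted p = 1.27e-07). The KO minus WT difference was -0.44 in LK GFPhi (adjusted p = 0.203), where the KO arrays lay below the WT arrays. It was 0.26 in LSK GFPhi (0.873), 0.46 in LSK GFPneg-lo (0.483) and 0.04 in LK GFPneg (0.992).

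The 4 Ccr2 probe sets followed one another, with r of 0.834 to 0.970 over 24 arrays. All 4 were called higher in WT LK GFPhi than in WT LK GFPneg, by 5.40 (1421186_at), 3.03 (1421188_at), 1.55 (1421187_at) and 0.81 (1460067_at). None of the 4 was called between genotypes in any population. In LSK GFPhi the KO arrays of 1421188_at read 10.19, 10.58 and 10.22, above the WT arrays at 9.68, 9.65 and 9.89, with a difference of 0.59 that was not called (adjusted p = 0.509). Those of 1421187_at also lay apart (0.34, adjusted p = 0.853), while 1460067_at had a difference of -0.05.

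Ccr1, the receptor for Ccl3, had a wide spread between arrays of a group (pooled SD of 0.54 on 1419609_at, close to the 0.55 of Ccr9 1427419_x_at and above the other members). Probe set 1419609_at read 9.13, 7.65 and 9.33 in WT LK GFPhi, 7.83, 6.76 and 7.88 in WT LSK GFPhi, 6.02, 5.55 and 6.37 in WT LSK GFPneg-lo, and 5.98, 5.51 and 5.72 in WT LK GFPneg. Replicate 2 was the lowest array in each of these 4 groups. The GFPhi populations lay above the GFP-low populations, and the arrays of the GFPhi populations overlapped with each other.

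WT LK GFPhi was 2.97 ± 0.41 (SE) above WT LK GFPneg for Ccr1 (adjusted p = 2e-05), and WT LSK GFPhi was 1.75 above it (0.00316). No step between neighbours in the order was called, with differences of 1.21 (adjusted p = 0.14) from LSK GFPhi to LK GFPhi, 1.51 (0.0506) from LSK GFPneg-lo to LSK GFPhi, and -0.25 (0.783) from LSK GFPneg-lo to LK GFPneg. Without WT LK GFPhi replicate 2 the first was 1.74 (adjusted p = 0.00896), and without WT LSK GFPhi replicate 2 the second was 1.87 (0.0221). The arrays of the second step do not overlap, and it also passed with the replicate number as a block (0.0362), 1 probe set per gene (0.0348), the dimmest 40% left out (0.0394), trend and robust eBayes (0.0437) and array weights (0.032). The first also passed with array weights (1.43, 0.0284).

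KO arrays of Ccr1 read 8.43, 8.93 and 8.32 in LK GFPhi and 6.52, 8.14 and 6.87 in LSK GFPhi, where replicate 2 was the highest. They overlapped with the WT arrays in all 4 populations. The KO minus WT differences were -0.14 (LK GFPhi), -0.31 (LSK GFPhi), 0.19 (LSK GFPneg-lo) and -0.16 (LK GFPneg), none of them called. The 95% confidence interval in LK GFPhi was -0.99 to 0.71, so any difference within that range remains compatible with these arrays. The second Ccr1 probe set, 1419610_at, followed the first (r = 0.886) and was 1.91 higher in WT LK GFPhi than in WT LK GFPneg (adjusted p = 0.00143).

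In KO LK GFPhi 1 of the 15 member probe sets, 1450020_at of Cx3cr1, fell and 0 rose, in a comparison in which 8.79% of all probe sets were called and 4.81% were called lower. With the replicate number as a block 3 fell, by the addition of Cxcr4 and of Ccr9 1421920_a_at. That fit also called more of all probe sets (numbers at the end of the text), so the shares above are not its background. The median member difference was -0.14, against 0.05 over all probe sets. Arrays of the genotypes were apart for 3 members, all lower (Cx3cr1, Ccr9 1421920_a_at and Ccr2 1421186_at), where 9.26% of all probe sets were apart in that direction. In KO LK GFPhi 7 of 7 early lymphoid markers fell (list means of 10.5 to 10.9 on WT arrays and 8.23 to 9.11 on KO arrays). Of the granulocyte and monocyte progenitor markers 1 of 8 rose (11.2 to 12.0 and 11.9 to 12.2), and of the mature monocyte and macrophage markers 1 of 6 rose (6.98 to 7.25 and 7.42 to 7.79). Of the dendritic cell markers 3 of 8 fell (8.18 to 8.46 and 7.72 to 7.93), among them Flt3, which is also on the early lymphoid list. Of the stem cell markers 4 of 8 rose (6.92 to 7.46 and 8.62 to 8.86), of the megakaryocyte and erythroid markers 3 of 7 rose (8.05 to 8.31 and 8.88 to 9.79), and of the mature T and NK cell markers 3 of 7 rose (7.04 to 7.09 and 7.39 to 7.82). On these lists with risen markers, the LK GFPhi group means of some genes were nonetheless lower in KO. They were Adgre1 of the monocyte and macrophage list (8.33 in WT, 7.81 in KO), Csf1r (12.72, 12.60), Meis1 (9.76, 9.44) and Tfrc (11.50, 11.01). Of the mature B and plasma cell markers 1 of 7 fell (7.75 to 8.06 and 7.43 to 7.52). The part of these cell types in the Cx3cr1 and Cxcr4 values was not tested.

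**Figure D4:**
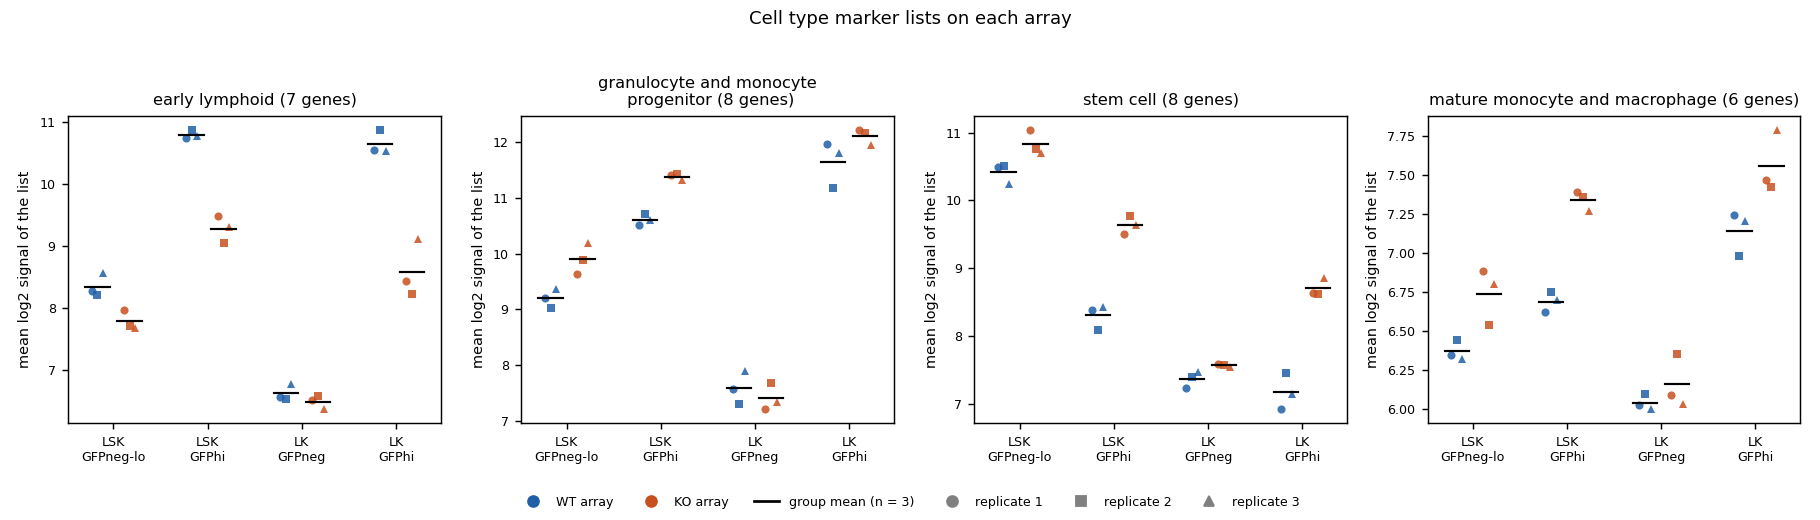
Mean log2 signal of marker lists (panels) on each array, by sorted population (horizontal axis), blue for WT and orange for KO, with marker shape for the replicate number and a bar for the mean of 3 arrays. Early lymphoid markers lie between 10.5 and 10.9 on WT GFPhi arrays and between 8.23 and 9.49 on KO GFPhi arrays.

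In the GFP-low populations no member was called between genotypes by limma. In LSK GFPneg-lo 0 of 15 passed, where 1.49% of all probe sets did, and 1 had an unadjusted p under 0.05 (Ccr2 1421186_at, named after its value was seen). In LK GFPneg 0 of 15 passed, where 1.6% of all probe sets did, and 0 had an unadjusted p under 0.05. The tests of differences between KO effects called 0 of 15 within LSK (0.175% of all probe sets), within LK (1.56%), within GFPhi (0.0933%) and within GFP-low (0.446%). The numbers with an unadjusted p under 0.05 were 3, 2, 5 and 0. The share of all probe sets at that cutoff was not counted. The shares above are therefore no background for these numbers or for those of the GFP-low populations. In this fit a fall called in one population and not in another is not shown to differ between them. With the replicate number as a block, which pairs the arrays within LK, the Cx3cr1 difference of KO effects was called there (adjusted p = 0.00368).

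Between WT populations, every member called between a GFPhi and a GFP-low population was higher in the GFPhi cells. In LK GFPhi against LK GFPneg 9 of 15 probe sets were called higher and 0 lower, where 13.4% of all probe sets were called and 7.09% were higher. In LSK GFPhi against LSK GFPneg-lo 5 were higher (2.87% of all called, 0.988% higher), and 9 with the replicate number as a block. The share of all probe sets called with the block is not given for this comparison, so the 9 has no background here. In LK GFPhi against LSK GFPneg-lo 9 were higher (9.13% of all called, 3.39% higher), and in LSK GFPhi against LK GFPneg 8 were higher (22.8% of all called, 10.7% higher). In LK GFPhi against LSK GFPhi 3 were higher (Ccr2, Cxcr4 and Cx3cr1) and 1 was lower (Ccr9), where 2.6% of all were called, 1.19% higher and 1.42% lower. In LK GFPneg against LSK GFPneg-lo Ccr2 1421186_at alone was lower, where 21.3% of all were called and 10.8% were lower.

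Between KO populations fewer members were called in some of these comparisons, and the difference between genotypes is that given by the tests of KO effects above. LK GFPhi was higher than LK GFPneg in 7 of 15 probe sets (18.2% of all called, 8.61% higher), and LSK GFPhi was higher than LSK GFPneg-lo in 2 (1.44% of all called, 0.56% higher), or in 4 with the replicate number as a block. The share of all probe sets called with the block is not given for these comparisons. LK GFPhi was higher than LSK GFPneg-lo in 7 (9.03% of all called, 3.39% higher) and LSK GFPhi was higher than LK GFPneg in 6 (19.8% of all called, 9.71% higher). LK GFPneg was lower than LSK GFPneg-lo in 1 (17.2% of all called, 9.7% lower). LK GFPhi and LSK GFPhi had 0 called (0.77%) by limma, with 4 at an unadjusted p under 0.05, a cutoff at which the share of all probe sets was not counted. Without the block, the members called in the first 4 of these comparisons belonged to Ccr1, Ccr2 and Cxcr4 only, or to Ccr2 alone in the second. With the block Cx3cr1 1450020_at was also called higher in each of the 4 (adjusted p = 0.0199, 0.0455, 0.02 and 0.011). Ccr9 1427419_x_at was then called in the fourth (0.0435), where the replicate numbers did not pair the arrays.

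The wider chemokine system was read from lists of other receptors, ligands and signalling genes, with 1 probe set per gene. Of 15 other receptors measured, 1 rose in KO LSK GFPhi and 2 rose in KO LK GFPhi, and 0 were called in the GFP-low populations. The shares of all probe sets called in either direction were 3.05% (LSK GFPhi), 8.79% (LK GFPhi), 1.49% (LSK GFPneg-lo) and 1.6% (LK GFPneg). Counts this small are a description and not a result about the list. Cxcr3, the receptor for the interferon-induced ligands Cxcl9 and Cxcl10, rose in KO LSK GFPhi from 6.98 ± 0.06 to 7.69 ± 0.07 (SD, n = 3), a difference of 0.72 ± 0.10 (SE, adjusted p = 0.000231) that was called without each array. It also rose in KO LK GFPhi by 0.42 (adjusted p = 0.0159), a call lost without WT replicate 3 (0.38, 0.074) or KO replicate 3 (0.32, 0.108). Ccrl2, an atypical receptor that binds chemerin, rose in KO LK GFPhi by 0.45 (adjusted p = 0.0298), and this call was lost without WT replicate 2 (0.38, 0.104), WT replicate 3 (0.46, 0.0755) or KO replicate 3 (0.28, 0.193) and with median centring (0.42, 0.0537). The list medians were 0.03 (LSK GFPneg-lo), 0.05 (LSK GFPhi), 0.10 (LK GFPneg) and 0.11 (LK GFPhi), against 0.01, -0.01, 0.03 and 0.05 over all probe sets.

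Of 26 ligands measured, 1 was lower in each KO population and 1 was higher in KO LK GFPhi. The background was again 1.49% (LSK GFPneg-lo), 3.05% (LSK GFPhi), 1.6% (LK GFPneg) and 8.79% (LK GFPhi) of all probe sets called, so these counts too are a description. Ccl3, a ligand of Ccr1, fell in KO LSK GFPhi from 9.02 ± 0.71 to 7.06 ± 0.22 (SD, n = 3), a difference of -1.96 ± 0.34 (SE, adjusted p = 0.00169) that was also called without each array. Ppbp, a platelet chemokine precursor, fell in KO LK GFPneg by 2.56 (adjusted p = 0.0302) and in KO LK GFPhi by 2.46 (0.0133). The first of these Ppbp calls was lost without any of 5 arrays (WT replicates 2 and 3 and all KO replicates, adjusted p = 0.0763 to 0.208) and the second without WT replicate 3 (-1.83, 0.0925). Ccl9 fell in KO LSK GFPneg-lo by 1.01 (0.0294), and lost its call without WT replicate 1 or 3 or KO replicate 2 or 3 (0.084 to 0.167). Cxcl16 rose in KO LK GFPhi by 0.33 (0.0467), and lost its call without any of 4 arrays (WT replicates 1 and 3 and KO replicates 1 and 3, 0.112 to 0.205). The marrow and thymus ligands Cxcl12 and Ccl25 were not called between genotypes in any population.

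Of 28 signalling genes measured, Rgs2 fell in every KO population. Rgs2 encodes a regulator that shortens signalling by G proteins. The largest fall was in LK GFPneg (-1.92, adjusted p = 7.17e-08), beside -0.68 in LSK GFPneg-lo (0.00856), -0.65 in LSK GFPhi (0.00729) and -0.57 in LK GFPhi (0.0112). Its level in LK GFPneg went from 7.55 ± 0.11 in WT to 5.63 ± 0.08 in KO (SD, n = 3), and that call held without each array. The other 3 were each lost without at least 1 array, namely WT replicate 3 or KO replicate 2 in LSK GFPneg-lo (0.0688 and 0.057), WT replicate 3 or KO replicate 1 in LSK GFPhi (0.0596 and 0.0512) and WT replicate 3 in LK GFPhi (0.0537).

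KO LK GFPneg had 4 of the 28 signalling genes lower, where 1.6% of all probe sets were called in either direction. Besides Rgs2 they were Rac2, a small GTPase of blood cells (named outside the rule, after its value was seen), Coro1a, an actin-binding protein of leukocytes (-1.50, adjusted p = 0.000421, and 0.109 with only the compared groups fitted), and Rgs18, a G protein regulator of platelets and their precursors (-1.23, 0.000598). The only signalling gene called higher between genotypes was Rgs10 in LSK GFPneg-lo (1.23, adjusted p = 0.0322), and that call was lost without WT replicate 1 or 3 or KO replicate 2 or 3 (0.0857 to 0.223). The medians over this list were 0.02, -0.02, -0.06 and 0.05 in the same order of populations. Between WT populations this list set LK GFPneg apart, with 15 of 28 lower and 2 higher than in LSK GFPneg-lo, and a list median of -0.63 against 0.03 over all probe sets. Of all probe sets 21.3% were called in that comparison, and 10.8% were called lower. The list takes the probe set with the highest mean of each gene, while these shares cover all probe sets, dim ones included.

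The genes most like each receptor were read as a description from Pearson r over the 24 arrays, which share groups, so that r mostly reflects the order of populations. For Ccr2 1421186_at they were Csf1r (0.975), the macrophage colony stimulating factor receptor, F13a1 (0.968) and Ncf1 (0.966). Csf1r and F13a1 were also among the 3 nearest of 1421188_at (0.950 and 0.958, with Cdk5r1 at 0.934). Elane and Galnt3 were among those of 1421187_at (0.948 and 0.935, with Anxa3 at 0.949) and of 1460067_at (0.920 and 0.907, with Abcd2 at 0.921). Csf1r and Elane are on the list of granulocyte and monocyte progenitor markers. For Ccr1 1419609_at they were Anxa3 (0.930), Trim45 (0.922) and Hp (0.920), and for 1419610_at Slpi (0.874), Rbms1 (0.864) and Ccr2 (0.850). For Cxcr4 they were Tmem156 (0.935), Aldh1b1 (0.931) and Nucb2 (0.931), and for Cx3cr1 1450020_at they were Tifab (0.908), AI839979 (0.877) and Ly86 (0.876). Ccr9 1427419_x_at was most like Wfdc18 (0.890), Icos (0.879) and C030013G03Rik (0.873), and 1421920_a_at was most like Zfp658 (0.897), C030013G03Rik (0.878) and Gpr18 (0.875). The median r over all genes was 0.02 to 0.10 for these 10 probe sets, which are those whose group means span at least 1.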

How the data were processed

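The deposited values are log2 signal that the authors made with RMA, per the submitters' processing notes, with no version in the sources used here. They ran from 3.33 to 14.5, with array medians of 6.57 to 6.75. Per the labels, total RNA was taken with Trizol and labelled as biotinylated cRNA for 1-colour arrays. Array signal has no read depth, and 3 arrays per group limit the precision.

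Of 45101 probe sets, 64 controls were left out. The platform annotation gave 1 symbol to 34945 of the others, several to 932 and none to 9160. By Entrez ID 34741 matched the reference gene table (GRCm38.p6), which gave coordinates and changed 0 symbols. Lists used the probe set with the highest mean per gene (18193 genes).

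A single limma 3.58.1 model (R 4.3.3, lmFit and eBayes at their defaults) had a mean for each of 8 groups. Its 24 arrays left 16 residual degrees of freedom, to which eBayes added 2.94. Tests were two-sided, with Benjamini and Hochberg adjustment over 45037 probe sets within each of 20 comparisons and a threshold of 0.05. No permutation test was used, since with 3 arrays on each side the exact p is at least 0.1. Members and lists were chosen with earlier results of these data known. By the naming rule, list genes with values were the called genes with the largest differences, up to 3 per list and KO comparison, and like genes were the 3 with the highest r, for probe sets whose group means span at least 1.

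Replicate numbers were taken to pair a comparison where each same-numbered pair of residuals had r above 0.1. This held for the KO difference of every population (0.207 or more) except LSK GFPhi (lowest r 0.0355), for all WT comparisons, for 5 of 6 KO comparisons and for the difference of effects within LK (lowest r 0.145).

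The alternatives fitted the compared groups alone, added the replicate number as a block, dropped the dimmest 40% of probe sets, kept 1 probe set per gene, used eBayes with trend and robust, weighted the arrays, centred them on the median, normalized by quantiles again or left out an array. For pathway genes these were chosen after seeing the data. The steps were tested on simulated data.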

Additional observations from a re-analysis of the deposited data

How the results depend on the processing

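The 300 member results (15 probe sets in 20 comparisons) were recomputed under 4200 alternative values. Of these, 4066 kept the direction of a called value and the side of the threshold, 57 lost a call, 77 gained one and 0 reversed. The 4066 include results called in neither fit, for which a change of direction was not counted, so this total does not measure how stable the calls are. Of 210 values for 15 pathway results, 43 lost the call and 0 reversed. With only the compared groups fitted, Ccl9, Rgs10, Ppbp, Coro1a, Ccrl2, Cxcl16, Cxcr3 in LK GFPhi and Rgs2 outside LK GFPneg lost theirs (adjusted p = 0.085 to 0.252).

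With only the compared groups fitted, the members called went from 3 to 0 for KO against WT in LSK GFPhi, 1 to 0 in LK GFPhi, 4 to 1 for WT LK GFPhi against LSK GFPhi, 2 to 4 for KO LSK GFPhi against LSK GFPneg-lo and 1 to 2 for KO LK GFPneg against LSK GFPneg-lo. Such fits have fewer arrays to estimate the spread. With the replicate number as a block they went from 1 to 3 for KO against WT in LK GFPhi, 5 to 9 for WT LSK GFPhi against LSK GFPneg-lo, 2 to 4 for KO LSK GFPhi against LSK GFPneg-lo, and 0 to 1 (Cx3cr1) for the difference of KO effects within LK and within GFPhi. The block took no call away from a member. It also called more of all probe sets for KO against WT in LK GFPhi and LSK GFPhi, as given below. In LSK GFPhi and within GFPhi the numbers are shared only as numbers.

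With the dimmest 40% of probe sets left out, both responding Ccr9 probe sets and Ccr7 were not tested, so KO against WT in LSK GFPhi went from 3 to 0. Others went from 1 to 2 (KO against WT in LK GFPhi), 5 to 3 (WT LSK GFPhi against LSK GFPneg-lo), 8 to 5 (WT LSK GFPhi against LK GFPneg) and 0 to 1 (difference within LK). Array weights gave 2 in place of 1 for KO against WT in LK GFPhi, 7 in place of 4 for WT LK GFPhi against LSK GFPhi and 5 in place of 2 for KO LSK GFPhi against LSK GFPneg-lo. Median centring gave 1 in place of 0 within LK. The causes of these changes, other than fewer arrays or probe sets, were not tested.

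With each array left out in turn, the members called ranged from 0 to 2 for KO against WT in LSK GFPhi, 1 to 2 in LK GFPhi, 2 to 7 for WT LK GFPhi against LSK GFPhi, and 0 to 1 for KO LK GFPhi against LSK GFPhi and for the differences within LK and within GFPhi. The count for 1 probe set per gene is not comparable, since it keeps 6 member probe sets. Over all probe sets, KO against WT in LK GFPhi had 3961 called, 8735 with the block and 749 with those 6 arrays alone, and in LSK GFPhi the numbers were 1374, 2411 and 965.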
